A study of Mus musculus with 2 samples.

Results

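Otol1 and Tectb epithelial cells are a small set of inner ear cells that carry transcripts for proteins of the extracellular membranes over sensory epithelia. A cell was taken as a member when at least 3 of 7 genes (Otol1, Tectb, Otog, Otogl, Agr3, Slitrk6 and St8sia2) had 1 or more unique molecular identifiers (UMIs, each counting 1 captured RNA molecule) and fewer than 3 of 10 hair cell genes were detected. Barcodes were considered if 300 or more genes were seen and mitochondrial transcripts gave no more than 20% of UMIs. The rule found 305 members among 42625 kept cells, 224 of 22672 in the library from ears treated with Isl1 and noise and 81 of 19953 in the library from ears exposed to noise only.

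Both libraries came from wild-type CBA/CaJ mice of 4 to 6 weeks, exposed for 2 h to noise of 105 dB at 1 to 20 kHz. In the treated group an adeno-associated virus (AAV) carrying Isl1 was given to the cochlea before the noise, and the sensory epithelium was dissected 2 days after the exposure. The noise-only group was the untreated opposite ear of the same mice. Ears of 5 mice entered each library as a pool with 1 library per group, so no test between groups was possible and no p-value is given. The labels do not give the vector's promoter, serotype or a control vector, so AAV treatment and Isl1 itself cannot be told apart. All intervals below are exact 95% intervals that cover counting error alone, not differences between mice.

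Supporting cells surround the hair cells of the cochlea and of the vestibular organs. They secrete the acellular membranes that couple sound or head movement to the hair bundles, among them the tectorial membrane of the cochlea, the otoconial membrane of the maculae and the cupula of the cristae. Otol1 encodes otolin, a collagen-like protein of otoconia and cupulae, and Tectb encodes beta-tectorin. Otog and Otogl encode otogelin and an otogelin-like glycoprotein of the same membranes. Isl1 belongs to the LIM homeodomain transcription factors and is used in the developing ear by both its neurons and its sensory epithelium.

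Otol1 lies on the plus strand of chr3:70007613-70028708 and Tectb on the plus strand of chr19:55180733-55196313 (GRCm38, GENCODE M21). Both are protein-coding, with 1 and 6 annotated transcripts. The 250 bases before the start of these genes, the 2 for which the cells are named, are shown because the cells are defined by their transcripts. They are taken from RefSeq (GRCm38.p6, chr3:70007363-70007612 and chr19:55180476-55180725, plus strand), and both genes matched. Capitals mark matches on either strand to ACAAT, the SOX core, to TAAT, a homeodomain core, and to TATAA.
Otol1: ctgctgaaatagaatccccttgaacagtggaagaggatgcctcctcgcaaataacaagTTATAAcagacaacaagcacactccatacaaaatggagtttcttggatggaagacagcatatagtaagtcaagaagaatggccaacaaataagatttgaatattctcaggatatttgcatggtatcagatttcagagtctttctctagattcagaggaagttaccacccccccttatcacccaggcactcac
Tectb: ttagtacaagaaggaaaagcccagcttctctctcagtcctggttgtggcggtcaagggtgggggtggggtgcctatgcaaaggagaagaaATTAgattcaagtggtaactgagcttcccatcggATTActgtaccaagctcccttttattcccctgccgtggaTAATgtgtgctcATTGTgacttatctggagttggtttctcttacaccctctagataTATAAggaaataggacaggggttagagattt
The Otol1 window held no ACAAT and no TAAT match and 2 overlapping TATAA matches. The Tectb window held 1 ACAAT match, 3 TAAT matches and 1 TATAA match, the last 31 bases before the start. Of 32851 RefSeq promoter windows of the same length, 27.7% held ACAAT, 54.9% TAAT and 22.8% TATAA. A match is a stretch of letters and was not tested for binding.

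The libraries held 24209 barcodes with Isl1 and noise and 21068 with noise only, against about 1600 cells loaded and a target of 1000. Members had a median of 1651.5 UMIs and 950.5 genes in the AAV-Isl1 library, and 1859 UMIs and 1025 genes in the noise-only library. Their mitochondrial share was 6.22% and 6.26%, AAV-Isl1 library first. In total the members held 470133 UMIs in the AAV-Isl1 library and 222919 in the noise-only library. The libraries shared 145 barcode sequences, and 1 member of each was listed in the other library, none as a member of both. Levels below are UMIs of a gene per 1000000 UMIs of all members of a library (CPM). They are compared between cells and libraries for 1 gene at a time.

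The values in this paragraph chose the members and are a description. Otol1 stood at 764 CPM (687 to 847) in AAV-Isl1 members and 579 CPM (483 to 688) in noise-only members. Tectb stood at 619 CPM (550 to 694) in AAV-Isl1 members and 659 CPM (557 to 775) in noise-only members. Otog was detected in nearly every member, 207 of 224 in the AAV-Isl1 library and 75 of 81 in the noise-only library, at 1844 CPM and 1485 CPM in that order of libraries. Otogl stood at 455 CPM in AAV-Isl1 members and 489 CPM in noise-only members. Agr3, of the anterior gradient family of disulfide isomerases, stood at 536 and 516 CPM in the same order. Slitrk6, a neuronal adhesion protein that the inner ear also makes, was at 264 CPM in AAV-Isl1 members and 206 CPM in noise-only members. St8sia2, a polysialyltransferase, was at 302 CPM in AAV-Isl1 members and 242 CPM in noise-only members. The 2 naming genes were concentrated in this set, which held 66.4% and 70.5% of all Otol1 UMIs of kept cells and 76.6% and 73.9% of all Tectb UMIs, AAV-Isl1 library first. St8sia2 was shared with hair cells, at 74.6 CPM in AAV-Isl1 hair cells and 61.4 CPM in noise-only hair cells.

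Otol1 and Tectb were not detected in the same cells throughout. An Otol1 UMI was found in 146 AAV-Isl1 members and 49 noise-only members, and a Tectb UMI in 60 and 19. Both were found together in 41 of 224 AAV-Isl1 members (18.3%) and 15 of 81 noise-only members (18.5%). Neither was found in 59 AAV-Isl1 members and 28 noise-only members, which entered through the other 5 genes. Exactly 3 rule genes were detected in 104 AAV-Isl1 members and 39 noise-only members, and 5 or more in 64 and 20. Just outside the rule, 206 AAV-Isl1 cells and 120 noise-only cells had 2 rule genes. In those cells Otol1 was at 115 and 76.1 CPM and Epcam at 939 and 1484 CPM, AAV-Isl1 library first. Just inside it, members with exactly 3 rule genes had Otol1 at 356 and 250 CPM and Epcam at 1363 and 1597 CPM in the same order.

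Set against the bulk of other kept cells, the members carried an epithelial and supporting cell profile. Because every gene of a cell bears on what else it holds, the comparisons with other cells are descriptions without a test. Of 5471 genes with at least 20 UMIs over all members, called measured, 4.26% were at least 4-fold higher in members than in all other kept cells in both libraries and 0.201% at least 4-fold lower. The minimum of 20 UMIs was counted in members, so scarce genes that are low in members drop out of every list. Of 7 measured epithelial genes 5 were at least 4-fold higher than in other kept cells (Epcam, Krt8, Krt18, Cldn9 and Esrp1). Epcam, an epithelial adhesion molecule, stood at 1812 CPM (1693 to 1938) in AAV-Isl1 members and 2046 CPM (1862 to 2242) in noise-only members, against 117 and 154 CPM in other kept cells of the same libraries. Of 17 measured supporting cell genes 8 were: Sox2, Sox9, Slc1a3, Otoa, S100a1, Jag1, Kcnj16 and Aqp4. Sox2, the transcription factor of prosensory and supporting cells, was at 313 CPM (264 to 368) in AAV-Isl1 members and 283 CPM (217 to 362) in noise-only members, against 51.8 and 45.9 CPM in other kept cells. Slc1a3, the glutamate transporter GLAST, was at 647 CPM in AAV-Isl1 members and 807 CPM in noise-only members, against 115 and 113 CPM. Hes5, a Notch target of developing supporting cells, had no UMI in any member. Against cochlear epithelium, defined below, 0 of the 7 epithelial and 1 of the 17 supporting cell genes were at least 4-fold above in both libraries. Over all measured genes 1.77% were. Supporting cell genes summed to 12826 and 18621 CPM in members and 14739 and 19722 CPM in cochlear epithelium, AAV-Isl1 library first. Epithelial genes summed to 3816 and 4629 CPM in members and 1676 and 1964 CPM there.

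Hair cell transcripts were near 0, which the rule required in part. All 10 hair cell genes together reached 123 CPM in AAV-Isl1 members and 49.3 CPM in noise-only members, against 4900 and 5392 CPM in hair cells, taken as cells with at least 3 of those genes and fewer than 3 rule genes. Over all measured genes 5.01% were at least 4-fold higher in members than in hair cells in both libraries and 0.804% at least 4-fold lower. None of the 10 hair cell genes was detected in 188 AAV-Isl1 members and 72 noise-only members. Of genes outside the rule, the calcium buffer Ocm of hair cells had no UMI in members, against 528 CPM in AAV-Isl1 hair cells and 1235 CPM in noise-only hair cells. Ush1c, which encodes harmonin, stood at 302 CPM in AAV-Isl1 members and 363 CPM in noise-only members, close to its 235 and 249 CPM in hair cells and against 35.1 and 25.6 CPM in other kept cells.

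**Figure D1:**
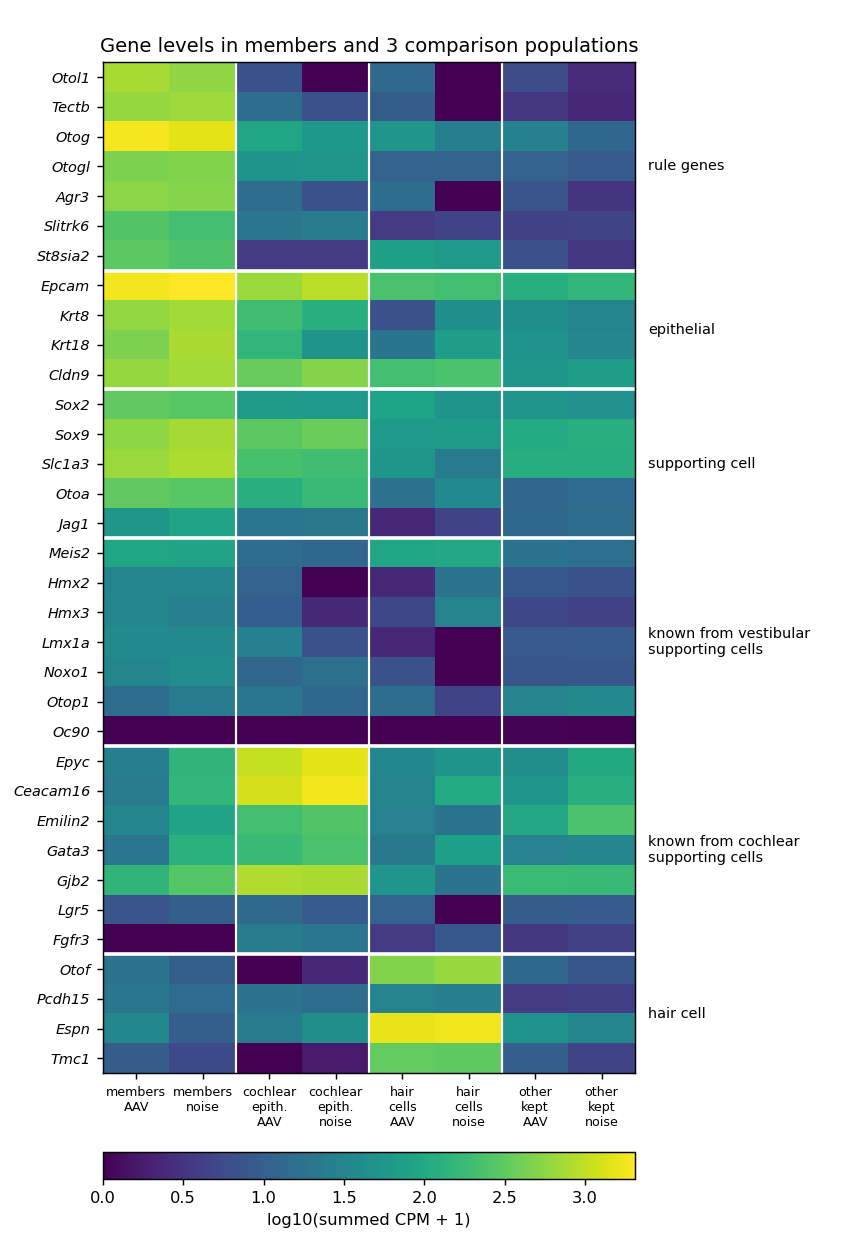
Summed level of each gene (rows) in members, cochlear epithelium, hair cells and all other kept cells of the AAV-Isl1 library (left of each pair) and the noise-only library (right of each pair), as log10 of CPM plus 1. Members were chosen by the top 7 genes and hair cells by the bottom 4, while Epyc, Ceacam16, Emilin2, Gjb2, Otoa and Fgfr3 helped choose the cochlear epithelium. Members stand above other kept cells in Epcam, Krt8 and Sox2 and lie below cochlear epithelium in Epyc and Ceacam16. For Gata3 that gap is wide in the AAV-Isl1 library and small in the noise-only library.

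Some genes known from vestibular supporting cells were higher in members than in the bulk of other cells, and several others were not detected. Of 16 listed vestibular genes 5 were measured, and all 5 were at least 4-fold above other kept cells in both libraries, as were 4.26% of all measured genes. Against cochlear epithelium 1 of the 5 was (Meis2), and against hair cells 0. The 5 were the homeobox genes Hmx2, Hmx3, Lmx1a and Meis2, and Noxo1, an organiser of the NADPH oxidase that otoconia need. Because genes were measured by their UMIs in members, scarce genes low in members drop out, and the count of 5 is a description only. Summed over all 16 genes, the list was at 306 CPM in AAV-Isl1 members and 278 CPM in noise-only members. It was at 160 and 182 CPM in other kept cells, 172 and 140 CPM in cochlear epithelium and 373 and 423 CPM in hair cells. Meis2 stood at 89.3 CPM (64.4 to 121) in AAV-Isl1 members and 85.2 CPM (51.3 to 133) in noise-only members, against 14.4 and 12.3 CPM in cochlear epithelium and 87.2 and 97.5 CPM in hair cells. Hmx3 rested on 15 UMIs in AAV-Isl1 members and 6 in noise-only members, and Hmx2 on 14 and 7. Of the 16 genes 4 had no UMI in any member, Oc90 (otoconin), Zpld1, Vit and Gbx2. Oc90 had 2 UMIs in all kept cells of the AAV-Isl1 library and 0 in the noise-only library, so it was hardly detected in any cells. Otop1, a proton channel needed for otoconia, had 7 UMIs in AAV-Isl1 members and 5 in noise-only members, and its 14.9 and 22.4 CPM lay below the 29.3 and 35.4 CPM of other kept cells. Nox3 had 1 UMI in AAV-Isl1 members and 0 in noise-only members.

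Cochlear genes were compared with cochlear epithelium, 319 AAV-Isl1 cells and 528 noise-only cells with fewer than 3 rule genes and fewer than 3 hair cell genes. These cells had at least 3 of Epyc, Otoa, Ceacam16, Emilin2, Gjb2, Gjb6, Tecta and Fgfr3. Outside those 8 genes, Gata3, a transcription factor of the cochlear duct, was at 19.1 CPM in AAV-Isl1 members and 130 CPM in noise-only members, against 175 and 228 CPM in cochlear epithelium. Npy had no UMI in members, and neither had Fgfr3, the receptor of pillar and Deiters cells and 1 of those 8 genes. Lgr5 had 3 UMIs in AAV-Isl1 members and 2 in noise-only members, and Fst had 2 and 1. Lgr6, another Wnt-associated receptor, was at 38.3 CPM in AAV-Isl1 members and 40.4 CPM in noise-only members, against 8.66 and 5.77 CPM in cochlear epithelium. Of the genes that chose the comparison cells, Ceacam16 was at 21.3 CPM in AAV-Isl1 members and 157 CPM in noise-only members, against 1236 and 1731 CPM. Otoa lay the other way, at 321 and 283 CPM in members against 123 and 174 CPM. Of 14 listed cochlear genes 9 were measured, and 3 were at least 4-fold above other kept cells in both libraries, as were 4.26% of all measured genes. Against cochlear epithelium 2 of the 9 were at least 4-fold above and 2 at least 4-fold below in both libraries, where 1.77% and 0.165% of all measured genes were. At least 3 of the 8 genes were detected in 29 AAV-Isl1 members and 14 noise-only members, which their rule genes kept out of the cochlear epithelium. The labels give cochlear sensory epithelium as the tissue, and no label separates a vestibular part.

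Matrix genes outside the rule were examined next. Of 15 measured matrix genes the rule used 4, Otol1, Tectb, Otog and Otogl, which pass by construction. Of the other 11, 5 were at least 4-fold above other kept cells in both libraries (Otoa, Tecta, Col9a1, Col9a2 and Col11a1), as were 4.26% of all measured genes. Against cochlear epithelium 3 of the 11 were (Tecta, Col9a1 and Col9a2), where 1.77% of all measured genes were and 0.165% were at least 4-fold below it. Tecta, which encodes alpha-tectorin, stood at 174 CPM in AAV-Isl1 members and 135 CPM in noise-only members, against 30.3 and 2.88 CPM in cochlear epithelium. Col9a1, a chain of type IX collagen, was at 76.6 and 71.8 CPM in members, AAV-Isl1 library first, against 13.0 and 14.4 CPM in cochlear epithelium. Col9a2 was at 232 CPM in AAV-Isl1 members and 242 CPM in noise-only members, against 28.8 and 33.9 CPM.

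Genes of Wnt signalling included 4 of 12 measured that were at least 4-fold above other kept cells, namely Sfrp1, Sfrp2, Lgr6 and Znrf3. Over all measured genes 4.26% were. Sfrp1, a secreted Wnt inhibitor, was at 619 CPM in AAV-Isl1 members and 691 CPM in noise-only members, against 33.7 and 28.3 CPM in other kept cells. Sfrp2 rested on 22 UMIs in AAV-Isl1 members and 9 in noise-only members.

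The 15 genes outside the rule that stood highest over other kept cells were ranked in both libraries. By the lower of the ratios to other kept cells in the libraries, the leading gene was Gad1, a GABA-synthesising enzyme, at 80.8 CPM in AAV-Isl1 members and 76.3 CPM in noise-only members, 40.4-fold and 121-fold above other kept cells. Corin, a membrane protease, was at 123 CPM in AAV-Isl1 members and 112 CPM in noise-only members, 57.9-fold and 40.3-fold above them. Cep41, a centrosomal protein, was at 515 CPM in AAV-Isl1 members and 390 CPM in noise-only members, 34.3-fold and 36.0-fold above them and 19.8-fold and 17.5-fold above cochlear epithelium. Rflnb, a regulator of the actin crosslinker filamin, was the most abundant of the 15 genes at 1559 CPM in AAV-Isl1 members and 1606 CPM in noise-only members. The proteoglycan Cspg5, the transcription factors Sox21 and Sall1, the mucin Muc15 and the sulfotransferase Chst5 were among the same 15. Gpx2, an epithelial glutathione peroxidase, was at 1285 CPM in AAV-Isl1 members and 1283 CPM in noise-only members, against 69.1 and 93.6 CPM in other kept cells.

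Members with neither Otol1 nor Tectb were compared with the rest, and few genes differed by 4-fold in both libraries. This split was chosen after values had been seen. Their median depth was higher, at 2158 UMIs in the 59 AAV-Isl1 cells and 2858.5 UMIs in the 28 noise-only cells, against 1510 and 1529 UMIs in members with either gene. Of 2285 genes with at least 50 UMIs, 0.394% were at least 4-fold lower and 0.0875% at least 4-fold higher, in both libraries, in members with Otol1 or Tectb than in members with neither. Wnt4, a Wnt ligand, was at 11.9 CPM in AAV-Isl1 members with Otol1 or Tectb and 237 CPM in those with neither, and at 18.9 and 274 CPM in the noise-only library. Pcdh17, a protocadherin, had 0 UMIs in the 165 AAV-Isl1 members with either gene and 47 UMIs in 17 of the 59 with neither, and 1 and 13 UMIs in the noise-only library. Gpx3, a secreted glutathione peroxidase, was at 83.6 CPM in AAV-Isl1 members with either gene and 865 CPM in those with neither, and at 56.6 and 855 CPM in the noise-only library. The doublecortin-like kinase Dclk1, the glypican Gpc3, the alarmin Il33 and the chemoattractant Rarres2 were also among the 12 genes chosen for being lowest in both libraries. Several lists went opposite ways in the libraries. Supporting cell genes summed to 14191 CPM with either gene and 9448 CPM with neither in the AAV-Isl1 library, and to 17600 and 19548 CPM in the noise-only library. The ratio, with either gene over neither, was 2.67 in the AAV-Isl1 library and 0.616 in the noise-only library for hair bundle and synapse genes, and 0.705 and 1.17 for interferon genes. Erythroid markers stood at 9254 CPM with either gene and 18659 CPM with neither in the AAV-Isl1 library, and at 7300 and 25.7 CPM in the noise-only library. In the noise-only library 1 member held 766 of the 777 erythroid UMIs, so that contrast rests on 1 cell.

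Among the genes on the other side of that split were Col11a1, Fgfrl1, Tril, Pls1 and Cep41. Col11a1, a fibrillar collagen chain, was at 221 CPM in AAV-Isl1 members with either gene and 37.0 CPM in those with neither, and at 236 and 51.3 CPM in the noise-only library. Pls1, an actin-bundling plastin, was at 290 and 81.3 CPM in the AAV-Isl1 library and 358 and 111 CPM in the noise-only library, members with either gene first. Cep41 was at 642 and 200 CPM in the AAV-Isl1 library and 641 and 163 CPM in the noise-only library. The 18 matrix genes other than Otol1 and Tectb, among them Otog and Otogl of the rule, summed to 5999 CPM with either gene and 3645 CPM with neither in the AAV-Isl1 library, and 6961 and 3336 CPM in the noise-only library. Immediate early genes, induced by handling and stress, summed to 18682 and 33460 CPM in the AAV-Isl1 library and 21448 and 39173 CPM in the noise-only library, members with either gene first.

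**Figure D2:**
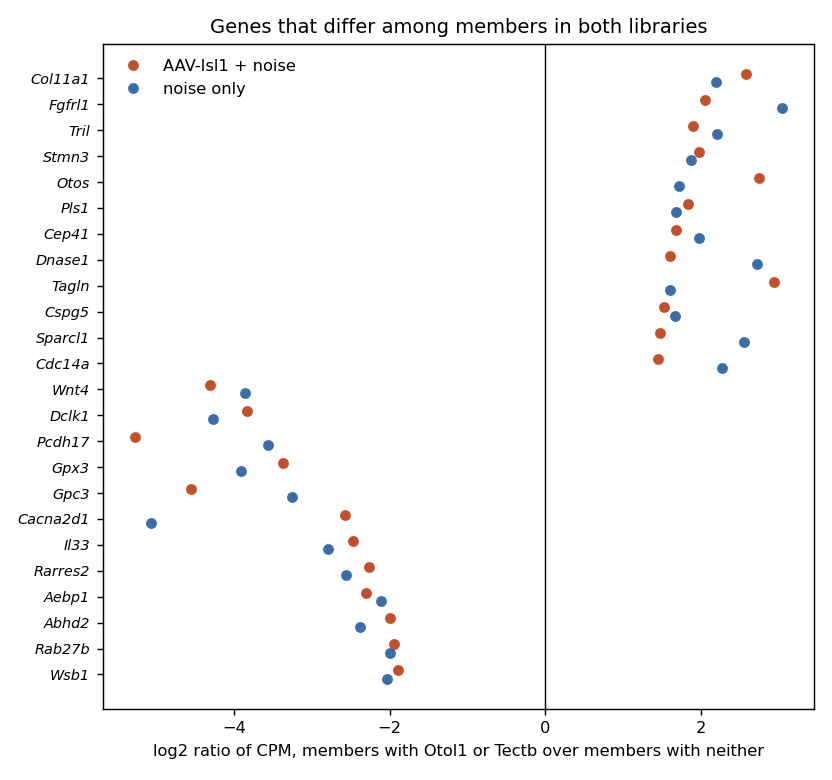
Log2 ratio of CPM in members with Otol1 or Tectb over members with neither, for the 12 genes that are highest and the 12 that are lowest in both libraries (AAV-Isl1 library in red, noise-only library in blue). Wnt4, Dclk1, Pcdh17 and Gpx3 lie left of 0 in both libraries; the AAV-Isl1 value of Pcdh17 is a bound, since it had 0 UMIs in 165 members.

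Tectb alone marked a further contrast, with 0.437% of 2287 genes at least 4-fold lower and 0.0437% at least 4-fold higher, in both libraries, in members with Tectb than in members without it. For Otol1 alone the shares were 0.35% lower and 0.0437% higher of 2286 genes, with Wnt4, Gpx3, Dclk1 and Pcdh17 again among the lower. Ecrg4, which encodes the secreted peptide precursor augurin, had 6 UMIs in the 60 AAV-Isl1 members with Tectb and 295 UMIs in the 164 without it, and 0 and 164 UMIs in the noise-only library. Its UMIs lay in few cells, 24 of the 164 and 10 of the noise-only 62 without Tectb. Mia, a secreted protein of cartilage, was at 36.1 CPM in AAV-Isl1 members with Tectb and 710 CPM without it, and at 61.4 and 868 CPM in the noise-only library. Gad1 was higher with Tectb, at 162 and 55.7 CPM in the AAV-Isl1 library and 184 and 46.0 CPM in the noise-only library.

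Members made up 0.988% of kept cells (0.863 to 1.13) in the AAV-Isl1 library and 0.406% (0.323 to 0.504) in the noise-only library, a ratio of 2.43 (1.88 to 3.18). With 1 pool per group, the yield of each dissection and a difference between the ears cannot be told apart. Cochlear epithelium ran the other way, with 319 cells in the AAV-Isl1 library and 528 in the noise-only library, and hair cells the same way, with 391 and 107.

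Isl1, the delivered gene, was higher in AAV-Isl1 members. It had 250 UMIs in AAV-Isl1 members and 28 in noise-only members, or 532 CPM (468 to 602) and 126 CPM (83.5 to 182), a ratio of 4.23 (2.86 to 6.50). With each member thinned to 1000 UMIs the ratio was 9.08 (3.45 to 33.9). That value rests on a random draw that was not repeated and on fewer than the 28 noise-only UMIs. Its interval overlaps that of all members, so it does not show a larger difference at equal depth. Without thinning the ratio was 4.72 in hair cells, at 426 CPM in the AAV-Isl1 library and 90.3 CPM in the noise-only library. In cochlear epithelium it was 1.45, at 86.6 and 59.8 CPM, and in all other kept cells 1.36, at 109 and 80.7 CPM. Counts at the 3′ end of a transcript do not separate vector Isl1 from the cell's own, and whether vector transcripts map to Isl1 at all is not given in the sources used here.

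The Isl1 UMIs lay in a minority of members. At least 1 was found in 61 of 224 AAV-Isl1 members (27.2%, 21.5 to 33.6) and 15 of 81 noise-only members (18.5%, 10.8 to 28.7), intervals that overlap. At 1000 UMIs per cell the shares were 20.9% of 177 AAV-Isl1 members and 13.6% of 59 noise-only members, with 47 and 22 shallower members left out. Erythroid cells, which should lack Isl1, were taken as a background. They gave 6.58% and 5.70% before thinning, at median depths of 1906 and 2397 UMIs, and 3.29% and 2.53% after it. At least 2 Isl1 UMIs were found in 33 of 1003 AAV-Isl1 erythroid cells and 9 of 263 noise-only ones, and at least 5 in 4 and 1. Whether this background is free RNA alone was not tested. At least 5 Isl1 UMIs were found in 17 AAV-Isl1 members (7.59%) and 1 noise-only member (1.23%), and at least 10 in 5 and 0 (0 of 81 allows a share of up to 3.70%). The 5 members with the most held 98 of 250 UMIs in the AAV-Isl1 library and 18 of 28 in the noise-only library. In noise-only members Isl1 was 2.10-fold above cochlear epithelium and 1.56-fold above other kept cells.

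**Figure D3:**
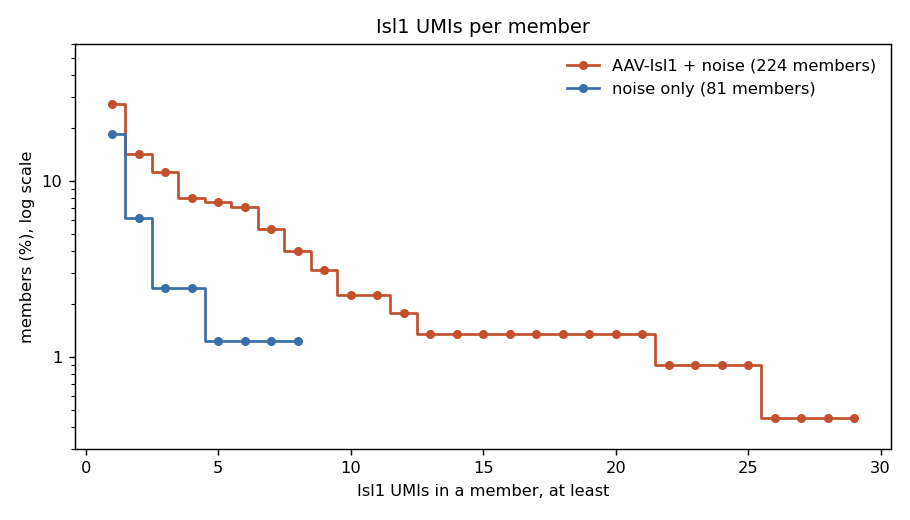
Share of members (log scale) with at least the number of Isl1 UMIs on the horizontal axis, of 224 AAV-Isl1 members (red) and 81 noise-only members (blue). The red line runs to 29 UMIs in the highest cell and the blue line ends at 8.

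Members with an Isl1 UMI were set against those without one within each library. Of 2288 genes 0.219% were at least 4-fold lower with Isl1 in both libraries and 0 at least 4-fold higher. Interferon genes summed to 5331 CPM in the 61 AAV-Isl1 members with Isl1 and 5407 CPM in the 163 without, a ratio of 0.986 (0.908 to 1.07). In the noise-only library the interferon ratio was 0.675 (0.513 to 0.879). Supporting cell genes gave 0.966 (0.916 to 1.02) in the AAV-Isl1 library. Hair bundle and synapse genes, most of them outside the rule, gave 1.37 (1.21 to 1.54) in the AAV-Isl1 library and 0.729 (0.517 to 1.01) in the noise-only library. Neuron markers summed to 2036 CPM in AAV-Isl1 members with Isl1 and 583 CPM in those without, a ratio of 3.49 (2.90 to 4.22), on 349 and 174 UMIs, of which 167 lay in 1 cell. In noise-only members they had 4 and 27 UMIs, a ratio of 0.329 (0.0835 to 0.943). Erythroid markers stood at 157 CPM with Isl1 and 18736 CPM without in the AAV-Isl1 library, and at 14.4 and 5051 CPM in the noise-only library. The noise-only values rest on 1 member that held 766 of the 777 UMIs. Neutrophil markers gave 0.104, fibrocyte markers 0.508 and striolar genes 0.390 in the AAV-Isl1 library. In the noise-only library fibrocyte markers and striolar genes went the other way, at 1.65 (1.26 to 2.17) and 4.06 (2.87 to 5.78). The striolar sums were mostly Tectb, a gene of the rule, so they describe that gene. Tectb gave 49 of 56 striolar UMIs with Isl1 and 242 of 250 without in the AAV-Isl1 library. In the noise-only library it gave 96 of 97 and 51 of 53. Neutrophil markers had 1 UMI with Isl1 and 0 without there. The part of these other cell types in the comparison was not tested. Immediate early genes were 1.81-fold higher (1.75 to 1.88) with Isl1 in the AAV-Isl1 library and gave 0.990 (0.940 to 1.04) in the noise-only library. In the noise-only library, where 15 members had Isl1, supporting cell genes gave 1.64 (1.54 to 1.74). Median depth was 2434 UMIs with Isl1 and 1504 without in the AAV-Isl1 library, and 3088 and 1755.5 in the noise-only library, and its part in these ratios was not tested.

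Interferon-stimulated genes were higher in AAV-Isl1 members. Of 28 listed genes in the files 18 were measured, and all 18 had a ratio above 1, as did 48.8% of all 5471 measured genes, and 15 were at least 2-fold higher in AAV-Isl1 members, as were 6.95% of all measured genes. Their median log2 ratio was 1.68, against -0.02 over all measured genes. Summed over the list they reached 5379 CPM in AAV-Isl1 members and 1422 CPM in noise-only members, a ratio of 3.78 (3.36 to 4.26). Ifi27l2a, an interferon-induced mitochondrial protein, stood at 2106 CPM (1977 to 2241) in AAV-Isl1 members and 327 CPM (257 to 412) in noise-only members, in 166 of 224 and 29 of 81 cells. Ifi27 was at 868 CPM in AAV-Isl1 members and 269 CPM in noise-only members. Ifitm3, which blocks viral entry, was at 649 CPM in AAV-Isl1 members and 265 CPM in noise-only members. Ifit1, a sensor of viral RNA ends, had 92 UMIs in AAV-Isl1 members and 4 in noise-only members.

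The difference was smaller in the comparison cells. Summed interferon genes were at 8397 CPM in AAV-Isl1 cochlear epithelium and 6923 CPM in noise-only cochlear epithelium, and at 1911 and 1120 CPM in hair cells. In all other kept cells they were at 4847 CPM in the AAV-Isl1 library and 5074 CPM in the noise-only library. In the AAV-Isl1 library Ifi27l2a lay higher in members than in other kept cells, at 2106 CPM against 1569 CPM, and in the noise-only library lower, at 327 CPM against 1544 CPM. The difference of these ratios between sets of cells was not tested.

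**Figure D4:**
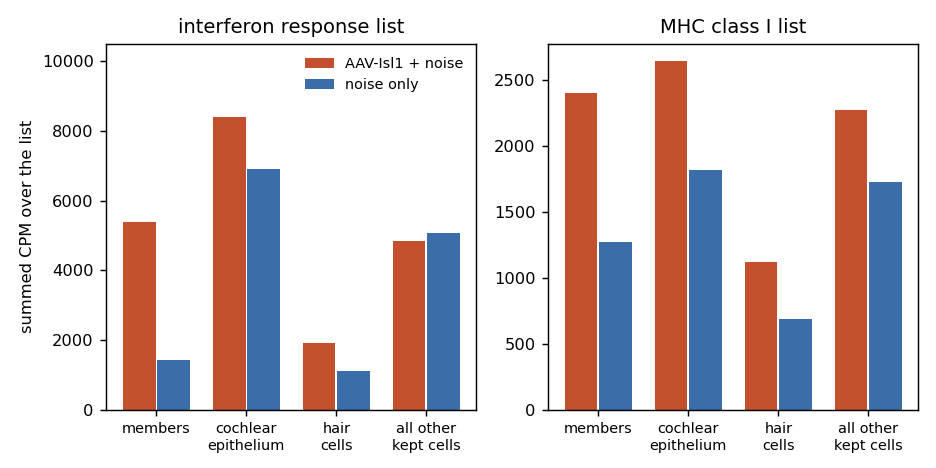
Summed CPM of the interferon response list (left) and the MHC class I list (right) in 4 sets of cells, AAV-Isl1 library in red and noise-only library in blue. For interferon genes the gap between libraries is wide in members, at 5379 and 1422 CPM, and narrow in all other kept cells, at 4847 and 5074 CPM; bars have no replicates and no error bars.

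MHC class I and its loading machinery were also higher. All 13 measured genes had a ratio above 1, as did 48.8% of all measured genes. Of the 13, 7 were at least 2-fold higher in AAV-Isl1 members, as were 6.95% of all measured genes, and the median log2 ratio was 1.18. Psmb8 and Psmb9 of the immunoproteasome belong to both lists. B2m, which encodes beta-2 microglobulin, was at 438 CPM (380 to 502) in AAV-Isl1 members and 103 CPM (65.4 to 155) in noise-only members. H2-K1 was at 304 CPM in AAV-Isl1 members and 121 CPM in noise-only members, and H2-D1 at 406 and 179 CPM. The chaperone Calr had 389 CPM in AAV-Isl1 members and 381 CPM in noise-only members. Among all other kept cells the summed list was at 2276 CPM in the AAV-Isl1 library and 1730 CPM in the noise-only library.

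Transcripts of other cell types also differed between the members of the libraries, and their part in these results was not tested. Neuron markers summed to 1112 CPM in AAV-Isl1 members and 139 CPM in noise-only members, with 167 of the 523 UMIs in 1 cell. Erythroid markers summed to 11960 and 3486 CPM, neutrophil markers to 453 and 4.49 CPM, and macrophage markers to 136 and 4.49 CPM, AAV-Isl1 members first. Melanocyte markers summed to 1470 CPM in AAV-Isl1 members and 507 CPM in noise-only members, and fibrocyte markers to 1989 and 1018 CPM. Of these lists 7 of 8 macrophage markers and 6 of 7 neutrophil markers were at 0 in noise-only members, and Ly6g and Ltf of neutrophils were at 0 in AAV-Isl1 members too. In the noise-only library 766 of the 777 erythroid UMIs lay in 1 member. Glial markers were at 2874 CPM in AAV-Isl1 members and 2212 CPM in noise-only members, endothelial markers at 136 and 184 CPM, marginal and dark cell markers at 234 and 274 CPM, and ciliated cell markers at 46.8 and 17.9 CPM. Lymphoid markers had 10 UMIs in AAV-Isl1 members and 0 in noise-only members. Vmo1 and the genes listed with it were at 113 CPM in AAV-Isl1 members and 852 CPM in noise-only members, with 104 of the 190 noise-only UMIs in 1 cell. Members with at least 3 markers of neurons, macrophages, neutrophils, lymphoid, erythroid, endothelial or ciliated cells, fibrocytes or melanocytes were then left out. The glial, marginal and dark cell and Vmo1 lists were not used for this. At least 3 glial markers were detected in 74 AAV-Isl1 members and 21 noise-only members. After this exclusion 158 AAV-Isl1 members and 70 noise-only members remained and the interferon ratio was 4.49. This alternative was chosen after the data were seen.

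Supporting cell genes mostly had ratios on the other side, with 12 of 17 measured supporting cell genes below 1, as were 51.2% of all measured genes, and a median log2 ratio of -0.32. Only Fbxo2 and Rorb were at least 2-fold lower in AAV-Isl1 members, where 3.31% of all measured genes were. Fbxo2, a ubiquitin ligase subunit abundant in inner ear epithelium, stood at 2214 CPM (2082 to 2353) in AAV-Isl1 members and 5280 CPM (4983 to 5590) in noise-only members. It was also lower in AAV-Isl1 cochlear epithelium, at 5088 CPM against 8213 CPM in noise-only cochlear epithelium. S100a1, a calcium-binding protein, was at 6543 CPM (6314 to 6778) in AAV-Isl1 members and 8936 CPM (8548 to 9337) in noise-only members. The counting intervals of the ratios of Sox2 and Sox10 included 1. Without the deepest member of each library the ratio of the summed list was 0.826, against 0.689 with all members.

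Cochlear supporting genes were lower in AAV-Isl1 members for 7 of 9 measured, as were 51.2% of all measured genes. Of the 9, 4 were at least 2-fold lower, as were 3.31% of all measured genes. These 4 were Epyc, Ceacam16, Emilin2 and Gata3, which rested on 12, 10, 15 and 9 UMIs in AAV-Isl1 members and 32, 35, 19 and 29 UMIs in noise-only members, in at most 9 cells of either library. The deepest noise-only member held 18986 UMIs. Without the deepest member of each library the ratio of the summed list was 0.803, against 0.647 with all members.

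Immediate early genes were below 1 for 18 of 20 measured, as were 51.2% of all measured genes. None was 2-fold lower, where 3.31% of all measured genes were, and their median log2 ratio was -0.42. Fos stood at 5020 CPM in AAV-Isl1 members and 5872 CPM in noise-only members, and Junb at 2427 and 3683 CPM. In other kept cells Fos was also lower in the AAV-Isl1 library, at 2903 CPM against 3999 CPM in the noise-only library. The summed ratio of 0.746 reached 1.01 when cells with 2 rule genes were added, so the direction rests on the rule. The vestibular genes gave a median log2 ratio of 0.07, antioxidant genes -0.01, Wnt genes -0.10 and Notch genes -0.08.

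**Figure D5:**
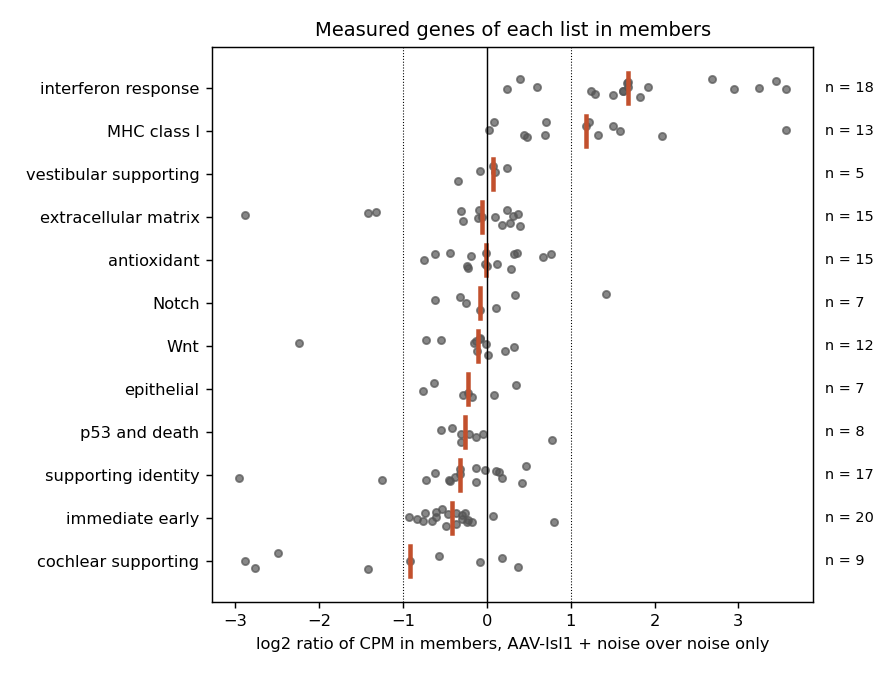
Log2 ratio of CPM in AAV-Isl1 members over noise-only members for each measured gene (grey points, n per list at the right) and the median of each list (red bar); dotted lines mark 2-fold. All 18 interferon genes and all 13 MHC class I genes lie right of 0, and 18 of 20 immediate early genes lie left of it.

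By a rule of size, the 12 genes with the highest ratios were Iigp1, Pcp4, Ifit1, Ifit3, Ifi27l2a, B2m, Isl1, Rtn1, Ifi27, Irf1, Dct and Bst2. Iigp1, an interferon-inducible GTPase outside the fixed list, had 82 UMIs in AAV-Isl1 members and 2 in noise-only members. Pcp4, a calmodulin regulator of neurons, had 177 and 6 UMIs, of which 166 lay in 1 AAV-Isl1 cell. Dct, a melanin enzyme, was at 1293 CPM in AAV-Isl1 members and 408 CPM in noise-only members, below the level of other kept cells in both libraries.

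The 12 genes with the lowest ratios were Vmo1, Cacna2d1, Scd1, Lgals1, Far1, Cndp2, Fibin, Slc12a7, Nr2f1, S100a13, Hk2 and Hebp2. In 1 noise-only cell each lay 68 of the 81 noise-only UMIs of Lgals1 and 99 of the 163 of Vmo1. S100a13 had 164 of its 409 noise-only UMIs in 1 cell. Nr2f1, a nuclear receptor of inner ear patterning, was spread over more cells, at 172 CPM in AAV-Isl1 members and 449 CPM in noise-only members. Scd1 and Far1, enzymes of lipid synthesis, were at 38.3 and 89.3 CPM in AAV-Isl1 members and 157 and 332 CPM in noise-only members.

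Genes used by hair cells and neurons gave a mixed picture. Of 7 measured hair bundle and synapse genes 3 were at least 2-fold higher in AAV-Isl1 members, Spp1, Calb2 and Pvalb, as were 6.95% of all measured genes. Spp1, a secreted protein that was abundant in the hair cells, was at 1204 CPM (1107 to 1307) in AAV-Isl1 members and 269 CPM (205 to 346) in noise-only members, against 2769 and 2440 CPM in other kept cells and 21987 and 25638 CPM in hair cells. Calb2 had 156 UMIs in AAV-Isl1 members and 5 in noise-only members, and Pvalb 131 and 9. Both calcium buffers are also neuronal, and their levels in members lay below those of other kept cells. The summed ratio of this list was 2.70, and 1.32 without members holding 3 markers of another cell type, glia not counted. Myo6, a hair cell motor protein, was at 189 CPM in AAV-Isl1 members and 184 CPM in noise-only members.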

How the data were processed

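Each library is a 10x Genomics 3′ v3.1 experiment. The deposited values are UMI counts per gene and barcode, written by Cell Ranger 5.0.1 per the file headers; Cell Ranger 5.0, STAR and Seurat 3.2.2 are named with mm10 and GRCm38 in the submitters' processing notes, without roles. The files held 32285 genes, of which 40 had a repeated symbol (lists used the row that came earliest).

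Members and the 34 gene lists were chosen with earlier results of these data known, and no list is independent support. Counts were summed over members of a library and divided by their total (CPM). A gene was measured with at least 20 UMIs over both libraries' members. Intervals are 95%, exact Poisson for CPM, exact binomial for ratios and Clopper-Pearson for shares; a count of 0 took a floor of 3 UMIs per library in ratios. Erythroid cells had at least 3 erythroid markers, fewer than 3 rule genes and fewer than 3 hair cell genes. The procedure was tested on simulated counts. Python 3.11.15, numpy 2.4.6, scipy 1.17.1 and scanpy 1.11.5 were used.

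Named genes were the rule genes, the hair cell genes, Isl1, up to 6 per list, and the genes with the largest ratios among those with at least 50 UMIs: 15 over other kept cells (seen in at least 10% of members), 10 over each comparison set and 12 in each direction between libraries (interval excluding 1, level at least 0.5 times that of other kept cells). Some further members of lists, and the genes of the split by Otol1 or Tectb, were named after their values were seen. Doublets were not removed: Scrublet, run per library at an expected rate of 6%, called 0 cells in either library and so did not work; leaving out the highest 6% of scores was tried instead. With 1 library per group no test was run. Replicates could not be left out.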

Additional observations from a re-analysis of the deposited data

Results flagged for a closer look

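Barcodes with at least 3 rule genes and at least 3 hair cell genes were left out of members, hair cells and cochlear epithelium. Above they count only among kept cells and all other kept cells. There were 40 in the AAV-Isl1 library and 15 in the noise-only library, and they were deep, with medians of 3188.5 and 4101 UMIs. Isl1 stood at 644 CPM in the AAV-Isl1 ones and 46.9 CPM in the noise-only ones, on 100 and 3 UMIs, a ratio of 13.7 (4.57 to 67.8). At least 1 Isl1 UMI was found in 22 of the 40 and 2 of the 15. They were looked at because their Isl1 level lay above that of the control library and no comparison above shows them as a set of their own. Among the highest 6% of Scrublet scores were 2 of the 40 and 1 of the 15. Whether they are doublets of a member and a hair cell was not tested.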

How the results depend on the processing

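No paired analysis was possible because each group is 1 pooled library. Of 51 alternative values for the share ratio, the Isl1 ratio and the numbers of genes at least 2-fold higher (380) and lower (181), 39 stayed within the interval of the main value or within 1.5 times the main count. The share ratio ranged from 1.88 to 3.33, the highest when the rule was applied after thinning every kept cell to 1000 UMIs (120 and 31 members). The Isl1 ratio ranged from 3.11 to 9.08, the highest with members thinned to 1000 UMIs. Thinned members gave 176 genes higher and 88 lower among 1982 measured. Minimums of 10, 50 and 1 UMIs gave 889, 84 and 1233 higher and 532, 30 and 853 lower, since they change how many genes are tested. At least 4 rule genes gave 112 lower, and leaving out members with 3 markers of another cell type, glia not counted, 151 higher. Both leave fewer genes measured.

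The interferon ratio ranged from 2.52 to 4.79 and the MHC class I ratio from 1.63 to 2.37. Among list sums, 9 changed direction. Adding cells with 2 rule genes gave 1.01 for immediate early, 0.946 for potassium and gap junction and 0.778 for erythroid genes. Leaving out members with 3 markers of another type, glia not counted, gave 1.03 for epithelial genes and 0.929 for potassium and gap junction genes. Leaving out members with neither Otol1 nor Tectb gave 0.866 for the rule genes, 0.944 for striolar, 0.904 for crista and 0.900 for glial genes. The cause was not tested. These exclusions, that of the deepest members and that by Scrublet score were added after the data were seen. With 81 noise-only members, ratios of genes with few UMIs have wide intervals.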
